A study of Mus musculus with 6 samples.

Results

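The 10 genes described here are ligands, targets and feedback inhibitors of bone morphogenetic protein (BMP) signalling: the ligand genes *Bmp2*, *Bmp4* and *Bmp7*, the target genes *Id1*, *Id2*, *Id3*, *Id4* and *Msx2*, and the feedback inhibitors *Smad6* and *Bambi*. They were taken by symbol from a table of 21639 gene entries, in which each of the 10 has 1 entry. RNA-Seq was done on 3 mouse lines, each as embryonic stem cells (ESCs, Day 0 or D0) and after 3 days as embryoid bodies (EBs, Day 3 or D3). A single library stands for each of the 6 conditions. The labels give strain V6.5 (129SvJaexC57BL/6) for every sample, and the protocol names KH2 ESCs as the parent of the transgenic lines. H2AZ WT and H2AZ-AP3 cells carry a YFP-tagged H2A.Z transgene behind a CMV promoter that doxycycline (1 µg/ml) switches on, and were sorted for YFP. In H2AZ-AP3 the transgene has the substitutions G92N, D97N and S98K, which replace H2A.Z residues of the acidic patch by those of H2A. Both transgenic lines, like the H2AZ KD line, also carry short hairpins against the 3′ untranslated region of endogenous H2A.Z, so none of the 3 is an unmodified control. ESCs were grown in serum and LIF and spent the last passage without feeder fibroblasts, and EBs formed from the same medium without LIF. GEO's tags call the D3 samples embryonic stem cells as well.

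BMPs are secreted dimers that bind type I and type II serine/threonine kinase receptors, which phosphorylate Smad1, Smad5 and Smad9. These join Smad4 and bind target genes, among which the *Id* genes are the best known. Id proteins hold a helix-loop-helix but no DNA-binding region, and they pair with E proteins and thereby keep bHLH activators off DNA. In mouse ESCs grown with serum, BMP4 and its Id targets act beside LIF and STAT3 to hold back neural differentiation.

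Values are RPKM, reads scaled to transcript length and to the number of mapped reads, and can be set side by side between genes. A gene was called when its ratio between 2 libraries passed 1.5-fold (0.58 on the log2 scale), with 0.001 RPKM added to each value. There are no replicates, so no p-value is given and no difference has a replicate check. The table holds no read counts. From the steps between low RPKM values the H2AZ-AP3 D0 library was 1.59 times as deep as the H2AZ WT D0 library, and the others were between 1.04 and 1.35 times as deep, at an estimated 18.3 to 29.0 M reads. The intervals below are 95% intervals of the log2 ratio from the read numbers this implies. They cover counting error only, not the spread between cultures, and PCR copies among the reads could not be counted out. *H2afz*, the gene the hairpins target, was at 279, 343 and 304 RPKM in H2AZ WT, H2AZ KD and H2AZ-AP3 in ESCs and 258, 236 and 394 RPKM in EBs, so the library labelled H2AZ KD was not lower in ESCs, and it is named by its label throughout. Reads of the H2A.Z transgenes may count to *H2afz* in H2AZ WT and H2AZ-AP3, so these values cannot tell how far the endogenous gene was depleted. Of 8 ESC markers, 6 were found, all above 1 RPKM in every library. *Pou5f1* was between 358 and 540 RPKM, and *Klf4* was at 121, 131 and 65.9 RPKM in ESCs and 17.4, 17.1 and 14.9 RPKM in EBs.

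In H2AZ WT ESCs the levels of the 10 genes ran from 0.699 to 19 RPKM. *Id3* was highest at 19 RPKM, followed by *Id2* at 12.2, *Bmp4* at 9.23 and *Id1* at 7.42 RPKM. *Id4* stood at 4.87, *Bmp7* at 3.85, *Bambi* at 3.55 and *Smad6* at 3.20 RPKM, and *Msx2* at 1.16 and *Bmp2* at 0.699 RPKM were lowest. On the estimated depths these levels rest on 444 reads for *Id3* and 45 for *Bmp2*. *Bmp2* reached 1 RPKM in a single library, that labelled H2AZ KD at D3. The other 9 genes were above 1 RPKM in all 6 libraries.

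**Figure D1:**
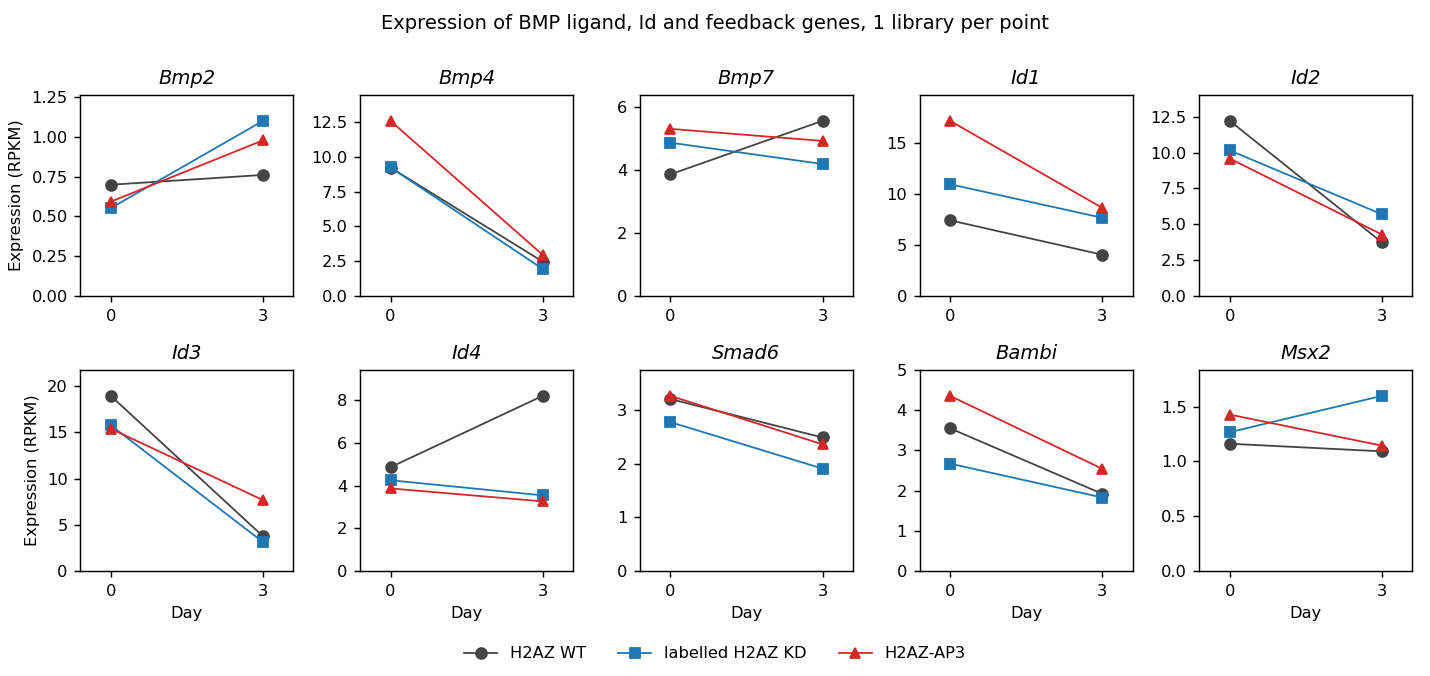
Expression in RPKM (vertical axes, each from 0) of the 10 genes at day 0 and day 3 (horizontal axes) in the 3 lines, 1 library per point, with lines joining the 2 days of a line. *Bmp4*, *Id1*, *Id2*, *Id3*, *Smad6* and *Bambi* were lower at day 3 in all 3 lines. Of these, *Smad6* in every line and *Id1* and *Bambi* under the H2AZ KD label changed by less than 1.5-fold. The share of all entries that were lower in all 3 lines was not counted. The *Id4* value of H2AZ WT at day 3, 8.22 RPKM, stands above its other 5 values.

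Smad1 and Smad5 with Smad4 are known to bind GC-rich letters beside a GTCT. A motif of GGCGCC, then 5 bases of any kind, then GTCT was searched on both strands in the 10001 bases centred on the annotated gene start, for the 6 genes that have an entry in the RefSeq promoter table (*Bmp4*, *Id2*, *Id3*, *Id4*, *Smad6* and *Msx2*). It was present in 4 of the 6 windows, against 0.585% of 19817 windows of the same length around coding genes of the table. Motif and genes were both chosen for their known link to BMP signalling, so this count is a description and not a test. The sites are shown because a pair of them or more lie around *Id2* and *Id3*. Each is given 5′ to 3′ in mm9 (NCBIM37), on the strand of its gene, with the 15 letters of the motif in capitals.
Id2, upstream, chr12:25783712-25783740, − strand: cgcgcctGGCGCCAGAGAGTCTgctccgg
Id2, downstream, chr12:25777902-25777930, − strand: tttgggtGGCGCCTGCTAGTCTgccttgg
Id3, upstream, chr4:135696448-135696476, + strand: ccaccctGGCGCCAGGCTGTCTggggctg
Id3, intron, chr4:135700701-135700729, + strand: cctccctGGCGCCGGCCAGTCTgcggcat
Id3, downstream, chr4:135703889-135703917, + strand: gttcgctGGCGCCCGGATGTCTgagctct
Id4, intron, chr13:48358252-48358280, + strand: ggtcggtGGCGCCAGTTAGTCTgcagcga
Msx2, upstream, chr13:53571733-53571761, − strand: ggcccttGGCGCCCATTTGTCTgcccgct

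All 7 sites read in the direction of the gene. Counted to the GENCODE transcript start, the upstream sites end 2762 bases before *Id2*, 2943 before *Id3* and 3297 before *Msx2*. For *Id3* and *Msx2* this start lies upstream of the one in the deposited table, whose coordinates are given with each gene. The shorter GGCGCC, which the longer motif contains, was in all 6 windows and in 55.3% of all windows, with 10 copies at *Smad6*, 9 at *Id3* and 8 at *Id2*. The palindrome GTCTAGAC, also shown in capitals, was found once, across the annotated start of *Smad6* (chr9:63869856-63869877, − strand), and in 8.40% of all windows.
Smad6, gene start: ccaaagtGTCTAGACtggcata

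In the 300 bases of the RefSeq promoter entries (GRCm38.p6), GGCGCC lay in those of *Id2* and *Id4* and in 11.9% of 32851 entries, and the longer motif in none of the 6. A match of letters is a description and not a binding site. No entry matched *Bmp2*, *Bmp7*, *Id1* or *Bambi*.

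From D0 to D3, 6 of the 10 genes passed 1.5-fold in H2AZ WT, 1 higher (*Id4*) and 5 lower (*Bmp4*, *Id1*, *Id2*, *Id3* and *Bambi*). Of all entries 30.7% passed 1.5-fold in the same pair of libraries, and of the 12240 that reached 1 RPKM in 1 of them 23%, with 12.4% higher and 10.6% lower. In the library labelled H2AZ KD, 4 of 10 passed, 1 higher and 3 lower (background 30.2%, or 22.3% of entries that reached 1 RPKM, with 12.4% higher and 9.86% lower). In H2AZ-AP3 6 passed, 1 higher and 5 lower (background 31%, or 24.3%, with 11.2% higher and 13.1% lower). The gene that was higher there, *Bmp2*, did not reach 1 RPKM, so on the latter base 5 passed, all lower. The median log2 change of the 10 genes was -0.62 in H2AZ WT, -0.53 under the H2AZ KD label and -0.62 in H2AZ-AP3, against 0.04 in each line for entries with at least 1 RPKM.

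*Bmp4* (chromosome 14 of mm9, 47003196 to 47010274, − strand, 4 exons) encodes a ligand known to support ESC self-renewal beside LIF. It was at 9.23 RPKM in H2AZ WT, 9.24 under the H2AZ KD label and 12.6 in H2AZ-AP3 ESCs. In EBs the values were 2.47, 1.94 and 2.95 RPKM. All 3 D0 values lay above all 3 D3 values. The share of all entries for which this holds was not counted, and the 3 values of a day come from different lines. It was lower at D3 by 3.73-fold in H2AZ WT (log2 -1.90, interval -2.24 to -1.59), 4.76-fold under the H2AZ KD label (-2.25, -2.58 to -1.92) and 4.26-fold in H2AZ-AP3 (-2.09, -2.38 to -1.82). In H2AZ WT it ranked 234th from the lowest of 12240 changes.

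*Bmp7* (chromosome 2, 172695189 to 172765794, − strand, 7 exons), whose product can pair with BMP2 or BMP4, moved little. It went from 3.85 to 5.55 RPKM in H2AZ WT, from 4.86 to 4.18 under the H2AZ KD label and from 5.30 to 4.91 in H2AZ-AP3. None of these changes passed 1.5-fold, and the direction in H2AZ WT (log2 0.53) was opposite to the others (-0.22 and -0.11). *Bmp7* was the most abundant of the 3 ligand genes at D3, with 63.2% of their summed RPKM in H2AZ WT, whereas *Bmp4* held 67.0% at D0.

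*Bmp2* (chromosome 2, 133378935 to 133388621, + strand, 3 exons), a ligand made in the embryo by extraembryonic endoderm among other tissues, was the lowest. At D0 it was at 0.699, 0.552 and 0.592 RPKM in H2AZ WT, the library labelled H2AZ KD and H2AZ-AP3, and at D3 at 0.760, 1.1 and 0.978 RPKM. Only the library labelled H2AZ KD (1.99-fold, log2 0.99, interval 0.44 to 1.59) and H2AZ-AP3 (1.65-fold, 0.72, 0.21 to 1.24) passed 1.5-fold. Both calls were lost with a pseudocount of 1. The summed level of 10 extraembryonic endoderm markers was 21.4, 28.2 and 67.3 RPKM at D0 and 121, 325 and 161 RPKM at D3 in the same order of lines. Of those that reached 1 RPKM, 9 of 9, 10 of 10 and 6 of 9 were more than 1.5-fold higher at D3, and *Gata6* (log2 0.32), *Gata4* (0.15) and *Foxa2* (0.46) did not pass in H2AZ-AP3. Their part in the *Bmp2* values was not tested, and in bulk RNA fewer cells of a type and less RNA per cell cannot be told apart.

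*Id3* (chromosome 4, 135699737 to 135701307, + strand, 3 exons) showed the largest change with day among the 10 genes in H2AZ WT and in the library labelled H2AZ KD, while in H2AZ-AP3 that of *Bmp4* was larger. It went from 19 to 3.75 RPKM in H2AZ WT, from 15.8 to 3.12 under the H2AZ KD label and from 15.4 to 7.67 in H2AZ-AP3. The drop was 5.06-fold, 5.05-fold and 2.01-fold in that order, with log2 changes of -2.34 (-2.67 to -2.02), -2.34 (-2.68 to -2.02) and -1.01 (-1.25 to -0.77). The counting interval of H2AZ-AP3 does not overlap those of the other lines.

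*Id2* (chromosome 12, 25778664 to 25780957, − strand, 3 exons) was at 12.2, 10.2 and 9.59 RPKM in ESCs and 3.74, 5.70 and 4.28 RPKM in EBs in H2AZ WT, the library labelled H2AZ KD and H2AZ-AP3. It was lower at D3 by 3.27-fold, 1.78-fold and 2.24-fold. *Id1* (chromosome 2, 152562010 to 152563146, + strand, 2 exons) was at 7.42, 11 and 17.2 RPKM in ESCs and 4.05, 7.67 and 8.64 RPKM in EBs. It was lower at D3 by 1.83-fold in H2AZ WT, 1.43-fold under the H2AZ KD label, where it was not called, and 1.99-fold in H2AZ-AP3. The D0 and D3 values of *Id1* overlapped between lines, since H2AZ WT ESCs were below H2AZ-AP3 EBs.

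*Id4* (chromosome 13, 48356796 to 48359405, + strand, 3 exons), the family member best known from neural progenitors, went the other way in H2AZ WT alone. It was at 4.87 RPKM at D0 and 8.22 RPKM at D3 in H2AZ WT (1.69-fold higher, log2 0.76, interval 0.46 to 1.05). Under the H2AZ KD label it was at 4.26 and 3.55 RPKM (log2 -0.26, -0.62 to 0.08) and in H2AZ-AP3 at 3.87 and 3.27 RPKM (-0.25, -0.61 to 0.09). The change with day in H2AZ WT was 1.02 above that under the H2AZ KD label and 1.00 above that in H2AZ-AP3 on the log2 scale. This difference rests on the single H2AZ WT library of D3.

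Of the feedback inhibitors, *Bambi* (chromosome 18, 3507955 to 3516402, + strand, 3 exons), a receptor-like protein without a kinase, was at 3.55, 2.67 and 4.36 RPKM in ESCs and 1.92, 1.83 and 2.54 RPKM in EBs. It was lower at D3 by 1.85-fold in H2AZ WT and 1.71-fold in H2AZ-AP3, and by 1.46-fold under the H2AZ KD label, where it was called only after centring on the median ratio. Its processed pseudogene *Bambi-ps1* on chromosome 2 was at 3.15, 2.58 and 2.38 RPKM in ESCs and 2.23, 4.06 and 3.72 RPKM in EBs. Reads that align to both copies could be split between them, so values of *Bambi* are uncertain to that extent. *Smad6* (chromosome 9, 63800884 to 63869866, − strand, 4 exons), an inhibitory Smad, went from 3.20 to 2.49, from 2.77 to 1.91 and from 3.26 to 2.36 RPKM and did not pass 1.5-fold in any line (log2 -0.37, -0.54 and -0.47), though after centring the library labelled H2AZ KD did.

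*Msx2* (chromosome 13, 53562250 to 53568149, − strand, 2 exons), a homeobox gene that responds to BMP in limb, bone and neural crest, stayed between 1.09 and 1.60 RPKM. Its log2 change with day was -0.09, 0.34 and -0.32, and none was called. The counting intervals of all 3 held 0.

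**Figure D2:**
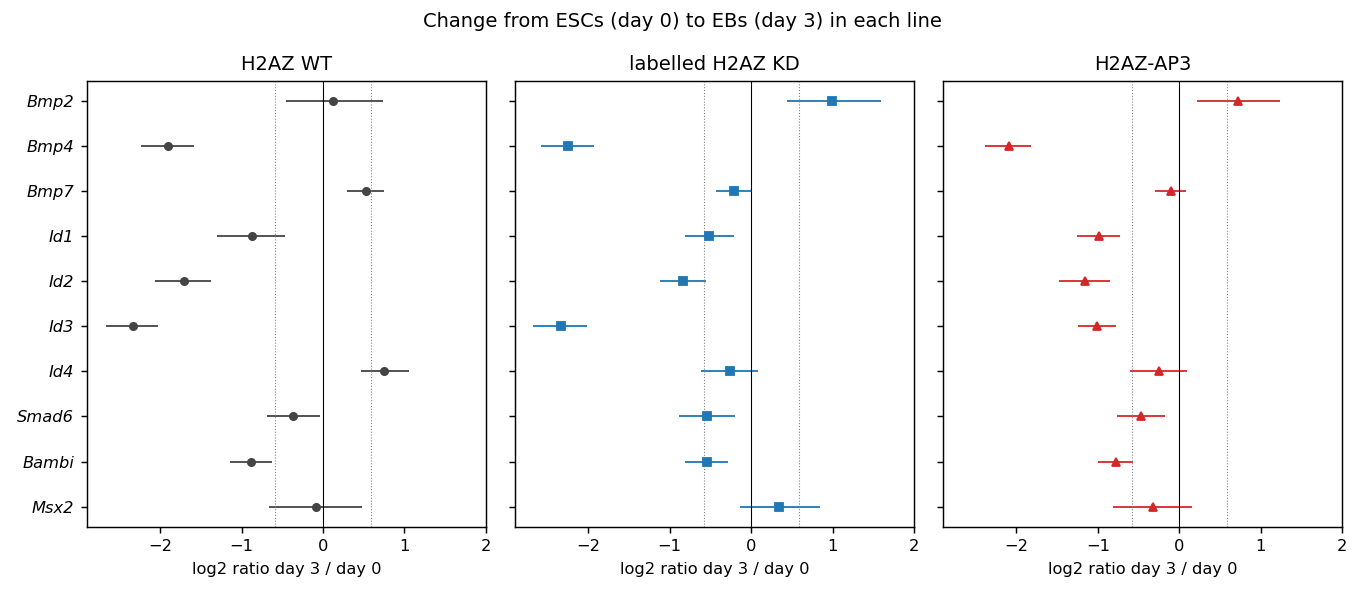
Log2 ratio of RPKM at day 3 over day 0 (horizontal axes) for each of the 10 genes in H2AZ WT, the library labelled H2AZ KD and H2AZ-AP3. Points are 1 library against 1 library, bars are 95% intervals for counting error only, and dotted lines mark 1.5-fold. *Bmp4* lies at -1.90, -2.25 and -2.09, *Id3* lies further right in H2AZ-AP3 (-1.01) than in the other lines, and *Id4* lies right of 0 in H2AZ WT only.

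Other transcripts moved with day as well. The 12 immediate early and serum response genes, with *Fos* and *Egr1* among them, had a summed level of 853, 750 and 568 RPKM at D0 and 116, 111 and 140 RPKM at D3. All 12 were more than 1.5-fold lower at D3 in H2AZ WT and in the library labelled H2AZ KD, and 10 of 12 were in H2AZ-AP3. The 12 fibroblast markers, which would show carried-over feeder cells, summed to 42.0, 33.9 and 69.8 RPKM at D0 and to 17.6, 10.0 and 14.8 RPKM at D3. Of these, *Lum* and *Postn* were at or near 0, with at most 0.333 RPKM, while *Col1a2* was between 11.8 and 22.5 RPKM at D0 and between 0.591 and 2.36 RPKM at D3. *Thy1* of the same list went the other way in every line (1.74 to 9.19, 2.42 to 5.48 and 1.74 to 3.56 RPKM), and 8 of 9, 8 of 9 and 9 of 10 fibroblast markers that reached 1 RPKM were lower at D3. Their part in the changes of *Bmp4* and the *Id* genes was not tested. The 8 epiblast and primitive streak genes, *Otx2* among them (4.22 and 22.3 RPKM in H2AZ WT), summed to 44.7 RPKM in ESCs and 111 RPKM in EBs of H2AZ WT, and the trophectoderm list, 7 of whose 8 genes were found, to at most 8.23 RPKM.

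**Figure D3:**
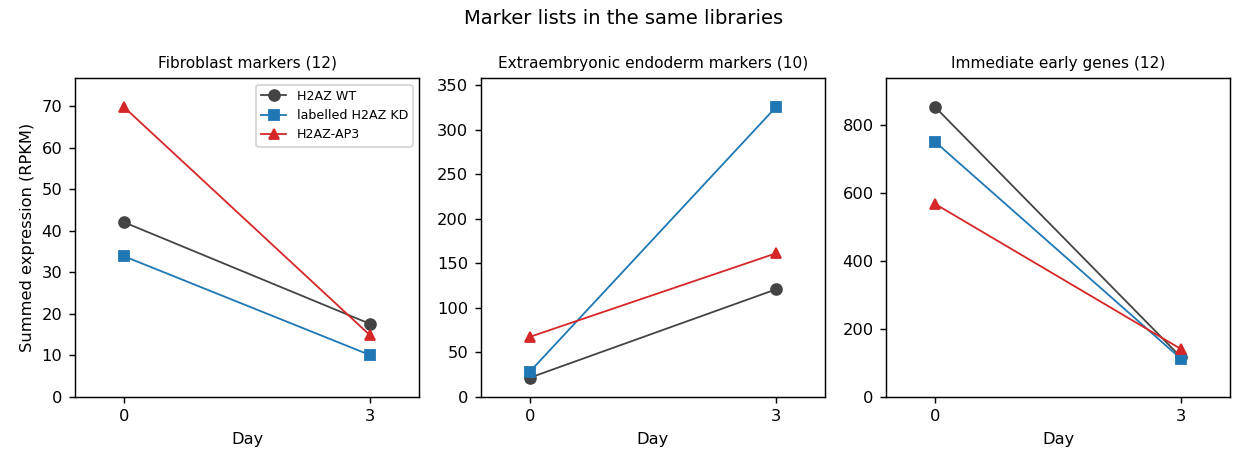
Summed RPKM (vertical axes, each from 0) of 3 marker lists at day 0 and day 3 in the 3 lines, 1 library per point. The sums of fibroblast markers and of immediate early genes were lower at day 3 in all lines, although *Thy1* of the former was higher, and the sum of extraembryonic endoderm markers was higher, up to 325 RPKM in the library labelled H2AZ KD.

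The comparison of H2AZ-AP3 with H2AZ WT asks what changing the acidic patch of H2A.Z does to expression. In ESCs 1 of the 10 genes passed 1.5-fold, against 25% of all entries and 13.9% of those that reached 1 RPKM (7.79% higher and 6.07% lower). This gene was *Id1*, at 17.2 RPKM in H2AZ-AP3 and 7.42 RPKM in H2AZ WT. The ratio was 2.31-fold (log2 1.21, interval 0.92 to 1.5), which ranked 227th from the highest of 12162 changes. The H2AZ-AP3 value was the highest of *Id1* in any library. The other *Id* genes were on the low side in H2AZ-AP3, with log2 changes of -0.35 for *Id2*, -0.30 for *Id3* and -0.33 for *Id4*, none of which passed 1.5-fold. *Bmp4* and *Bmp7* were at 1.36-fold and 1.37-fold of H2AZ WT (log2 0.45 and 0.46), and *Bambi* and *Msx2* both had a log2 change of 0.30, while *Smad6* (0.03) was near equal. The median over the 10 genes was 0.16, against 0.00 for entries with at least 1 RPKM.

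In EBs 3 of the 10 genes passed 1.5-fold between H2AZ-AP3 and H2AZ WT, against 22.1% of all entries and 10.2% of those that reached 1 RPKM (4.2% higher and 5.98% lower), and all 3 were *Id* genes. *Id1* was again higher in H2AZ-AP3, at 8.64 RPKM against 4.05 RPKM (2.14-fold, log2 1.09, interval 0.70 to 1.5). *Id3* was higher as well, at 7.67 RPKM against 3.75 RPKM (2.04-fold, log2 1.03, 0.68 to 1.39). *Id4* was lower, at 3.27 RPKM against 8.22 RPKM (2.52-fold, log2 -1.33, -1.67 to -1.02), which ranked 94th from the lowest of 11981 changes. *Id1* and *Id3* ranked 136th and 154th from the highest. *H2afz* itself was 1.52-fold higher in H2AZ-AP3 in this pair (394 against 258 RPKM, log2 0.61), and its part in these values was not tested. *Id2* was at 4.28 and 3.74 RPKM, with an interval that held 0. Among the other genes *Bambi* had a log2 change of 0.40 (0.13 to 0.67), and those of *Bmp2* (0.36), *Bmp4* (0.26), *Bmp7* (-0.18), *Smad6* (-0.08) and *Msx2* (0.07) had intervals that held 0.

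*Id1* was the only one of the 10 genes called in H2AZ-AP3 against H2AZ WT at both days. *Id3* was slightly lower than H2AZ WT at D0 and higher at D3, so that its log2 change against H2AZ WT differed by 1.33 between the days. No test of this difference was possible with 1 library per condition.

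Other lists moved with these values. In H2AZ-AP3 against H2AZ WT at D0, 6 of the 10 fibroblast markers with at least 1 RPKM were more than 1.5-fold higher and none lower, 8 of 8 extraembryonic endoderm markers were higher, and 5 of 12 immediate early genes were lower and 1 higher. At D3 the counts were 3 higher and 1 lower of 6 fibroblast markers and 2 higher and 1 lower of 9 endoderm markers. Of 10 immediate early genes 2 were higher and 1 lower. The part of these in the level of *Id1* was not tested. At D3 the fibroblast marker that was lower was *Thy1* (3.56 against 9.19 RPKM), while *Col1a1*, *Col1a2* and *Prrx1* were among those with higher values (log2 0.74, 0.86 and 0.63). Of the 6 ESC markers, *Klf4* (log2 -0.88) and *Sox2* (-0.80) were lower in H2AZ-AP3 at D0 and *Tbx3* (-0.63) at D3. Of the trophectoderm markers with at least 1 RPKM, 2 of 3 were lower at D0 and 2 of 2 at D3, and none higher. Of 4 epiblast and streak genes 1, *Otx2* (-1.62), was lower at D0, and none of 5 passed 1.5-fold at D3.

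**Figure D4:**
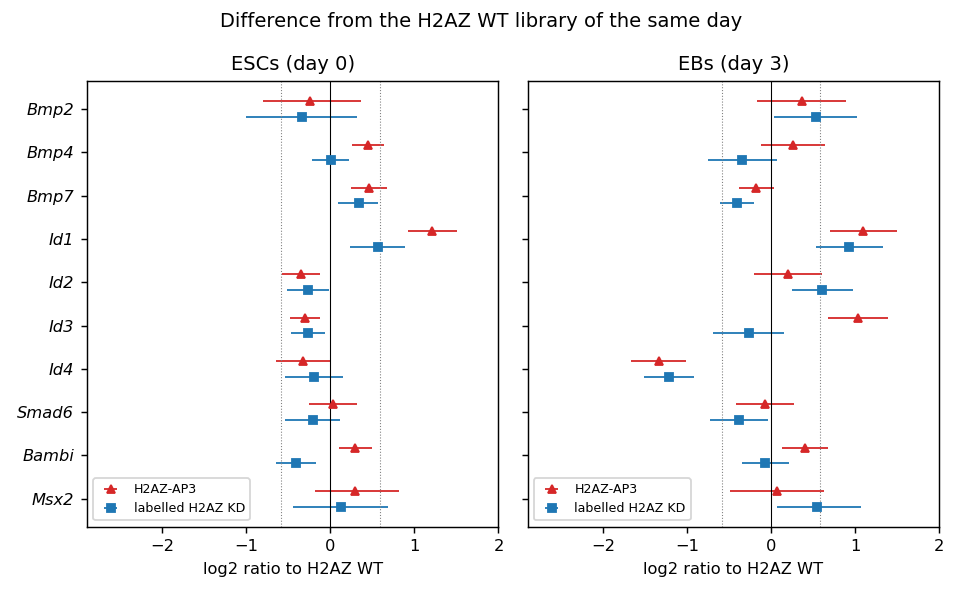
Log2 ratio of RPKM to the H2AZ WT library of the same day (horizontal axes) for H2AZ-AP3 (triangles) and the library labelled H2AZ KD (squares), at day 0 (left) and day 3 (right). Bars are 95% intervals for counting error only and dotted lines mark 1.5-fold. *Id1* lies right of 0 in all 4 comparisons, from 0.56 to 1.21, and *Id4* lies at -1.33 and -1.21 at day 3.

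The library labelled H2AZ KD was compared with the same H2AZ WT libraries, so the 2 sets of ratios share their denominators. At D0 none of the 10 genes passed 1.5-fold, against 19.7% of all entries and 8.02% of those that reached 1 RPKM (3.37% higher and 4.65% lower). *Id1* came nearest, at 11 RPKM against 7.42 RPKM (1.48-fold, log2 0.56, interval 0.23 to 0.89), and was called after centring on the median ratio (log2 0.59). *Bambi* was on the low side (-0.41, -0.65 to -0.17), and so were *Id2* and *Id3* (both -0.27), while *Bmp4* was equal within counting error (0.00, -0.22 to 0.22).

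At D3, 3 of the 10 genes passed 1.5-fold under the H2AZ KD label, against 20.7% of all entries and 8.59% of those that reached 1 RPKM (3.71% higher and 4.88% lower). *Id1* was higher, at 7.67 RPKM against 4.05 RPKM (1.89-fold, log2 0.92, interval 0.54 to 1.33). *Id2* was higher, at 5.70 RPKM against 3.74 RPKM (1.52-fold, log2 0.61, 0.24 to 0.98), just past the threshold, and this call was lost with a pseudocount of 1 (log2 0.50). *Id4* was lower, at 3.55 RPKM against 8.22 RPKM (2.32-fold, log2 -1.21, -1.51 to -0.92), and ranked 75th from the lowest of 11956 changes. *Id3* was not called (-0.26, -0.69 to 0.15). *Msx2* and *Bmp2* were on the high side (0.55 and 0.53) and *Bmp7*, *Smad6* and *Bmp4* on the low side (-0.41, -0.38 and -0.35), all under 1.5-fold. In the same pair 8 of 10 extraembryonic endoderm markers were more than 1.5-fold higher and none lower, and 4 of 4 fibroblast markers were lower.

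H2AZ-AP3 was also set against the library labelled H2AZ KD. At D0, 2 of the 10 genes passed 1.5-fold, against 27% of all entries and 18.4% of those that reached 1 RPKM (11.7% higher and 6.74% lower). *Id1* was higher in H2AZ-AP3 by 1.57-fold (log2 0.65, interval 0.40 to 0.90), and so was *Bambi* by 1.63-fold (0.71, 0.49 to 0.92), a call that was lost with a pseudocount of 1. In this pair 8 of 10 fibroblast markers and 7 of 8 extraembryonic endoderm markers were higher in H2AZ-AP3 and none lower. Of 12 immediate early genes 5 were lower and 1 higher, and of 5 epiblast and streak genes 3 were lower and none higher. At D3, 2 genes passed as well, against 22.7% of all entries and 11.3% of those that reached 1 RPKM (5.5% higher and 5.78% lower). *Id3* was 2.45-fold higher in H2AZ-AP3 (7.67 against 3.12 RPKM, log2 1.3, 0.95 to 1.66) and ranked 111th from the highest of 11943 changes. *H2afz* was higher as well in this pair (log2 0.74). *Bmp4* was 1.52-fold higher (2.95 against 1.94 RPKM, log2 0.60, 0.21 to 0.99), and this call was lost with a pseudocount of 0.1. Of the markers, 4 of 6 for fibroblasts were higher and 1 lower in H2AZ-AP3, and 8 of 10 for extraembryonic endoderm were lower. The part of these lists in the values of either pair was not tested. *Id1* (0.17, -0.15 to 0.48) and *Id4* (-0.12, -0.49 to 0.24) were within counting error of each other in the 2 D3 libraries.

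The makeup of the *Id* transcripts was described by the sum of the 4 genes, computed after their values had been seen. The sum was 43.5 RPKM in H2AZ WT, 41.1 under the H2AZ KD label and 46.0 in H2AZ-AP3 at D0, and 19.8, 20 and 23.9 RPKM at D3. *Id1* made up 17.1% of the sum in H2AZ WT, 26.6% under the H2AZ KD label and 37.3% in H2AZ-AP3 at D0. *Id3* was the largest part at D0 in H2AZ WT (43.6%) and the library labelled H2AZ KD (38.3%), but came after *Id1* in H2AZ-AP3 (33.5%). At D3 *Id4* was the largest part in H2AZ WT with 41.6%, against 17.7% under the H2AZ KD label and 13.7% in H2AZ-AP3, where *Id1* led with 38.3% and 36.2%.

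**Figure D5:**
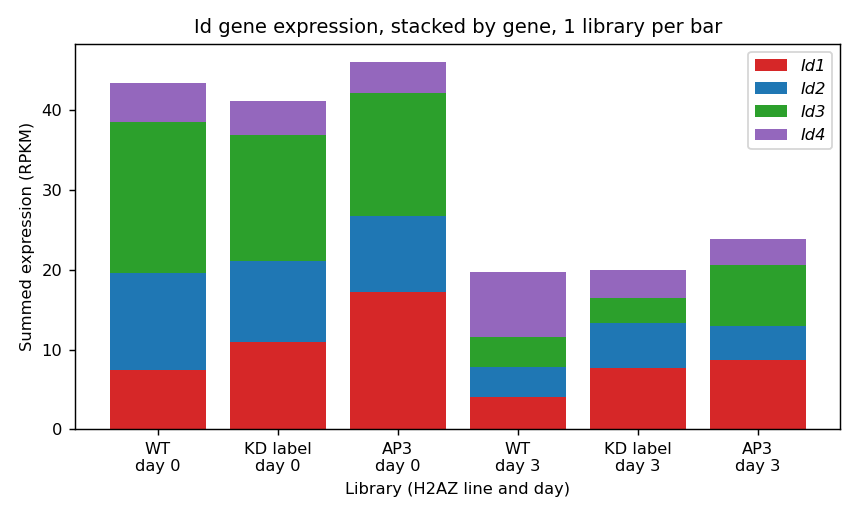
Summed RPKM of *Id1* to *Id4* (vertical axis, from 0) in each of the 6 libraries, stacked by gene, without error bars because each bar is 1 library. The bars are between 41.1 and 46.0 RPKM at day 0 and between 19.8 and 23.9 RPKM at day 3, and the *Id1* part is smallest in H2AZ WT at both days.

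The rest of the pathway was described from a list of 66 genes, of which 64 were found. Counting those that reached 1 RPKM in either library of a pair, H2AZ-AP3 against H2AZ WT had 5 of 36 genes higher and 3 lower at D0, and 3 of 35 higher and 1 lower at D3. Of all entries on this base 7.79% were higher and 6.07% lower at D0, and 4.2% higher and 5.98% lower at D3. Under the H2AZ KD label the counts were 0 higher and 2 lower of 33 at D0, and 1 higher and 1 lower of 35 at D3. The shares of all entries there were 3.37% higher and 4.65% lower at D0, and 3.71% higher and 4.88% lower at D3. The median log2 change of the list was between -0.02 and 0.11 in these 4 comparisons.

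*Bmpr1a*, a type I receptor and the most abundant of the receptor list, was between 15.7 and 22.0 RPKM in the 6 libraries. The signal-carrying *Smad1* was between 7.04 and 10.0 RPKM and *Smad5* between 7.27 and 8.46 RPKM. *Ppm1a*, a phosphatase with the highest mean level of the Smad list over the 6 libraries, was between 35.2 and 41.5 RPKM. In the library labelled H2AZ KD at D3 *Skil* was above it (42.3 against 38.3 RPKM). None of the receptor and Smad genes with at least 1 RPKM passed 1.5-fold at D3 against H2AZ WT in either line, and at D0 the coreceptor *Rgmb* (log2 -0.69) and the Smad corepressor *Skil* (-0.65) were lower in H2AZ-AP3. Between H2AZ-AP3 and the library labelled H2AZ KD, *Skil* was lower in H2AZ-AP3 at D0 (-0.78), and the type II receptor *Bmpr2* (-0.75) and the phosphatase gene *Ctdspl* (-0.61) were lower at D3. The E protein genes *Tcf3*, *Tcf4* and *Tcf12*, which encode partners of Id proteins, did not pass 1.5-fold in any of the 9 comparisons, and *Tcf3* was between 36.3 and 46.9 RPKM. *Gdf3*, a ligand that can block BMPs, was the highest of the other ligand genes, at 39.9 RPKM in H2AZ WT and 61.5 RPKM in H2AZ-AP3 at D3 (log2 0.62).

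Of the extracellular antagonists and modulators that reached 1 RPKM, 3 of 9 were higher in H2AZ-AP3 than in H2AZ WT at D0 and 1 of 8 at D3, and none was lower. Among all entries on this base 7.79% were higher at D0 and 4.2% at D3. *Grem1*, which codes for a secreted BMP antagonist, was at 9.68, 5.15 and 16.2 RPKM in ESCs and 1.52, 1.66 and 3.52 RPKM in EBs in H2AZ WT, the library labelled H2AZ KD and H2AZ-AP3. It was higher in H2AZ-AP3 than in H2AZ WT at both days (log2 0.75 and 1.22) and lower under the H2AZ KD label at D0 (-0.91). *Nbl1*, of the DAN antagonist family, was at 4.29 RPKM in H2AZ-AP3 ESCs against 1.25 RPKM in H2AZ WT (log2 1.78) and was under 0.6 RPKM in all EBs. *Bmper*, a modulator that binds BMPs, was at 1.41 against 0.569 RPKM at D0 (log2 1.3), and at D3 at 2.41 and 2.30 RPKM in H2AZ-AP3 and H2AZ WT and at 3.46 RPKM under the H2AZ KD label. *Tll1*, a protease that cleaves chordin, was under 0.7 RPKM in ESCs and 1.64, 1.1 and 2.09 RPKM in EBs. The abundant *Twsg1*, between 16.1 and 22.4 RPKM, did not pass 1.5-fold in any comparison. *Grem1* and the summed fibroblast markers were both highest in H2AZ-AP3 ESCs and lower in all EBs than in ESCs, and the part of fibroblast RNA in *Grem1* was not tested.

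Of the other BMP response genes, 10 of 11 were found and 4 reached 1 RPKM in the pairs of H2AZ-AP3 and H2AZ WT, of which 1 was higher and 1 lower at each day. *Zfp423*, a zinc finger partner of Smads and the highest of this list, was at 3.65, 5.12 and 5.10 RPKM in ESCs and 3.05, 2.38 and 3.57 RPKM in EBs in the same order of lines. It did not pass 1.5-fold against H2AZ WT at either day. At D3 *Gata2*, a transcription factor gene, was higher in H2AZ-AP3 (1.58 against 0.40 RPKM, log2 1.99) and the homeobox gene *Msx1* lower (log2 -1.18), and at D0 *Runx2* was higher (0.65) and *Hey1* lower (-1.11).

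Among 8256 genes averaging 5 RPKM or more over the libraries, the 5 whose profile over the 6 libraries was most like that of *Id1* were *Plaur*, *Fkbp10*, *Mir1199*, *Sc4mol* and *Slc19a2*. Likeness was the root mean square difference of log2(RPKM + 1) after each gene's mean was subtracted, and was 0.196 for *Plaur* and between 0.254 and 0.299 for the others. *Plaur*, the urokinase receptor gene, was at 12.3, 15.2 and 23.1 RPKM in ESCs and 8.78, 10.5 and 12.7 RPKM in EBs, in the same order of lines as *Id1* at both days. For *Bmp4* the 5 nearest were *Ptrf*, *Ppp1r15a*, *Dusp1*, *Nr4a1* and *Col6a1*, with differences between 0.0936 and 0.137. *Dusp1*, *Nr4a1* and *Ppp1r15a* are stress or immediate early response genes and *Col6a1* encodes a collagen. *Ptrf* was at 21.9, 19.1 and 24.1 RPKM in ESCs and 5.40, 4.94 and 6.70 RPKM in EBs. The 6 points share their libraries, and likeness over so few does not speak of shared control.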

How the data were processed

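RNA was chosen by oligo(dT) and sequenced from Illumina TruSeq libraries. With Tophat 1.4.1 (1.14 in the submitters' processing notes) and Bowtie 0.12.7 the authors placed the reads, single-end, on mm9, allowing 2 mismatches and 20 locations, and deposited RPKM per gene from Cufflinks 1.3.0, 1 library per condition. Their log2 ratios between lines were not used, and their own tests (Cuffdiff) neither. Strand use in counting is not given in the sources used here.

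Log2 ratios of RPKM plus 0.001 were computed for 9 pairs of libraries over all 21639 entries. Starts in the table count from 0 and were raised by 1. Depth was estimated from low values: ratios under 0.3 RPKM gave relative depth, and 3696 genes with 1 annotated transcript over 1.5 kb gave the absolute scale, whose peak was weak. Read numbers use the GENCODE transcript (NCBIM37) nearest each entry. Intervals are exact (Clopper-Pearson) at 95%. Scripts were tested on simulated data. The tools were matplotlib 3.10.9, scipy 1.17.1, pandas 2.3.3 and numpy 2.4.6 under Python 3.11.15.

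The members, lists and motifs were chosen with earlier results of these data known. All members are named. Other pathway genes are named where their mean reached 1 RPKM and they were called in at least 2 of 4 comparisons with H2AZ WT, or as the highest of their list by mean. *Rgmb*, *Skil*, *Bmpr2*, *Ctdspl*, *Gata2*, *Msx1*, *Runx2*, *Hey1*, *Smad1*, *Smad5*, *Tcf4* and *Tcf12* were named after their values were seen. *Cdx2*, *Gata3* and *Tfap2a* are in both the trophectoderm list and the list of BMP response genes. Alternatives were other pseudocounts, a filter, centring, a 2-fold threshold and summed entries.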

Additional observations from a re-analysis of the deposited data

Results flagged for a closer look

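Log2 changes of opposite sign under the same contrast, with at least 1 of them past 1.5-fold, are listed here, however small the other was. None of these differences was tested, because each condition has 1 library.

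With day, *Id4* was higher at D3 in H2AZ WT (log2 0.76) and on the low side under the H2AZ KD label (-0.26) and in H2AZ-AP3 (-0.25). The H2AZ WT change appears in both pairs. Against H2AZ WT, *Id3* in H2AZ-AP3 was at -0.30 at D0 and 1.03 at D3, and *Id2* under the H2AZ KD label was at -0.27 at D0 and 0.61 at D3. Between H2AZ-AP3 and the library labelled H2AZ KD, *Id3* was equal within counting error at D0 (-0.03, interval -0.23 to 0.15) and at 1.3 at D3. All of these are *Id* genes. Each rests on between 98 and 571 estimated reads per library.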

How the results depend on the processing

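The labels give no shared replicate numbers, so no fit with a replicate block was made, and with 1 library per condition none was left out. A fit of day over the 3 lines, paired by line, would treat different genotypes as replicates and was not run. With a 2-fold threshold the counts of called genes were 1 for the library labelled H2AZ KD against H2AZ WT at D3, 0 for H2AZ-AP3 against that library at D0 and 1 at D3, and, with day, 3 in H2AZ WT, 2 under the H2AZ KD label and 3 in H2AZ-AP3. The share of all entries was not counted at 2-fold, with other pseudocounts or after centring, so these counts have no background beside them. With a pseudocount of 1, 1 gene each was called for H2AZ-AP3 against the library labelled H2AZ KD at D0 and D3. That pseudocount lost 5 calls in all: *Bambi* and *Bmp4* in these pairs, *Id2* under the H2AZ KD label against H2AZ WT at D3, and *Bmp2* with day under the H2AZ KD label and in H2AZ-AP3. With a pseudocount of 0.1, and with centring on the median ratio, 1 was called at D3. Centring gained 3 calls: *Id1* for the library labelled H2AZ KD against H2AZ WT at D0, where it was then the 1 gene called, and *Smad6* and *Bambi* with day under the H2AZ KD label. The calls of H2AZ-AP3 against H2AZ WT (*Id1* at D0, *Id1*, *Id3* and *Id4* at D3) held under every alternative tried. With a pseudocount of 0.1, a pseudocount of 1 and centring, 90, 86 and 90 of the 90 log2 changes stayed within the main value's counting interval. Only centring could change the sign of a ratio, and 0 called changes were reversed by it. The filter and summed entries cannot alter the ratio of a gene with 1 entry, so they check nothing here. The read depth leaves *Bmp2* and *Msx2*, with 37 to 102 estimated reads, least precise.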
